A study of Mus musculus with 12 samples.

Results

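The integrated stress response genes described here are 10 transcripts that cells make when translation initiation is throttled: Ddit3, Atf3, Atf4, Atf5, Trib3, Chac1, Asns, Ppp1r15a, Ddit4 and Sesn2. They were taken by gene name from tables of read counts for 2 cell types of mouse bone marrow, which together list 35796 genes. All 10 genes have a row in both tables. RNA had been amplified by Smart-Seq2, a full-length cDNA method for very small inputs, from C57BL/6 mice that carried melanoma according to the series title.

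The libraries form 4 groups of 3: LSK cells of mice given diABZI, a synthetic drug-like compound that activates STING, a sensor of innate immunity; LSK cells of control mice; GMP cells of mice given diABZI; and GMP cells of control mice. LSK denotes a lineage-negative fraction that bears Sca-1 (the product of Ly6a) and Kit, and GMP denotes granulocyte-monocyte progenitors. The sources used here do not give dose, time, number of cells or what the control mice received, and all 4 groups share the strain and the tumour. Whether the 3 libraries of a group stem from different mice is not stated. All p-values then measure only how far these libraries scatter, and that scatter may be technical.

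Library totals were 30649314 to 47225983 counts, and 15099 to 24971 genes had at least 1 count. The LSK label was checked against its markers. Ly6a reached 5.31 to 9.07 CPM (counts per 1000000 counts of the library) in treated LSK libraries and 0.402 to 0.827 CPM in control ones. In GMP it had 17.5 to 25.9 CPM in treated and 0 to 0.562 CPM in control libraries, so its level also moved with treatment. Kit, the other gene of the label, was well detected, at 145 to 167 CPM in treated and 194 to 345 CPM in control LSK libraries. In GMP Kit had 127 to 160 CPM in treated and 130 to 188 CPM in control libraries. A list of 10 erythroid markers, among them Car2 and Gata1, summed to 10973 to 15060 CPM in treated LSK and 9379 to 14047 CPM in control LSK, against 191 to 268 CPM over all GMP libraries. Car1 and Car2 made up most of the LSK sums. Over the LSK libraries Gata1 had 288 to 575 CPM and Klf1 531 to 781 CPM. Hba-a1, Hbb-bs and Slc4a1, of the same list, reached at most 24.0, 13.7 and 0.359 CPM there. The cells are therefore called LSK-labelled below. The 10 GMP markers, Mpo and Elane included, summed to 39390 to 50426 CPM in GMP libraries and to 494 to 11088 CPM in LSK-labelled ones.

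In the integrated stress response, sensor kinases phosphorylate the translation initiation factor eIF2, which lowers protein synthesis as a whole and favours translation of a few messages with upstream open reading frames. The best known of these encodes ATF4, a transcription factor that switches on genes for amino acid supply, for other transcription factors such as CHOP (the product of Ddit3) and ATF3, and for brakes on the pathway. Because ATF4 itself is raised mainly at the level of translation, the RNA of its targets is often read as the sign of the pathway. In blood-forming tissue the pathway is known for its part in how stem and progenitor cells tolerate a shortage of amino acids, unfolded protein or haem.

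Promoters of the genes on which the results turn are printed first, from RefSeq on the build GRCm38.p6, 5′ to 3′ on the strand of the gene. For 4 genes the stretch holds the 250 bases before the annotated start, and for Trib3 it holds 30 bases around a match that lies 14 bases after it. Capitals mark TGATGNAA or its reverse complement, the core letters of the composite C/EBP-ATF element that ATF4 is known to bind, where N is any base.
Ddit3, chr10:127290543-127290792, plus strand: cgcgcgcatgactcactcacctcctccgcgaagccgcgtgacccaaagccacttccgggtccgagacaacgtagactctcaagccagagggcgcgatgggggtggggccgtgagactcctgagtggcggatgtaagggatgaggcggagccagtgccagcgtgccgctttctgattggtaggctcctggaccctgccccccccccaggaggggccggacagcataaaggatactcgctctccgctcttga
Atf3, chr1:191183334-191183583, minus strand: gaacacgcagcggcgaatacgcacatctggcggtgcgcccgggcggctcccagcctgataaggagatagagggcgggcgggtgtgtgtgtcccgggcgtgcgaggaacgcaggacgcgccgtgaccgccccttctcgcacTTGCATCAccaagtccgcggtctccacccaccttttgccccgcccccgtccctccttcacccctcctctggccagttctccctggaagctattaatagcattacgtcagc
Chac1, chr2:119350992-119351241, plus strand: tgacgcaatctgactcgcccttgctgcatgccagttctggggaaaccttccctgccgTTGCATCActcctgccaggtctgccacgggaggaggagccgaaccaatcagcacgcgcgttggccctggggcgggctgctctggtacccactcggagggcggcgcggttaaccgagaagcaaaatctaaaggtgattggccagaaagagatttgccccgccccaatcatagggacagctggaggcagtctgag
Asns, chr6:7693210-7693459, minus strand: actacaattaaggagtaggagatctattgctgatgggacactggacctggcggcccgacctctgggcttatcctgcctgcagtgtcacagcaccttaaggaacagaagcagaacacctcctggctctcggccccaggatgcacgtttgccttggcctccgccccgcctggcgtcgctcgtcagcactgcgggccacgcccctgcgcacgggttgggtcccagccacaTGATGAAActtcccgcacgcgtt
Trib3, chr2:152344028-152344057, minus strand: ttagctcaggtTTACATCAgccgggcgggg

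These letters, searched on both strands from 250 bases before to 50 bases after each start, were found in 4 of the 10 genes. They lay 110 bases before the start of Atf3, 193 before that of Chac1 and 23 before that of Asns, besides the match in Trib3. Of all 32851 mouse promoter windows of that length, 3.97% hold them. The palindrome TGACGTCA, a cAMP response element, was found in Ppp1r15a, 12 bases before the start, and in 1.79% of all windows. The interferon-stimulated core GAAANNGAA was found in Ppp1r15a as well, 220 bases before the start, and in 8.56% of all windows. The window of Ddit3 held none of the 3 motifs, which says only that these letters are not in these bases.

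Ddit3 rose after the agonist in both cell types and was the only one of the 10 genes to pass the test in either. Atf3 was 94.9-fold higher in treated LSK-labelled cells and 5.46-fold higher in treated GMP, with no overlap between libraries, but missed the threshold in both. Atf4, the upstream factor, was 1.48-fold higher in treated LSK-labelled cells and 1.404-fold higher in treated GMP and did not pass, and Ppp1r15a, Ddit4, Sesn2 and Atf5 had treated and control libraries that overlapped in both cell types. In GMP, Asns, Chac1 and Trib3 were also higher in all treated libraries than in all control ones. Counts were tested with edgeR's quasi-likelihood test and Benjamini-Hochberg adjustment over all tested genes, and a gene passed at an adjusted p below 0.05. Where RNA of a library made from an unstated number of cells differs, fewer cells of a type and less RNA per cell cannot be told apart.

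**Figure D1:**
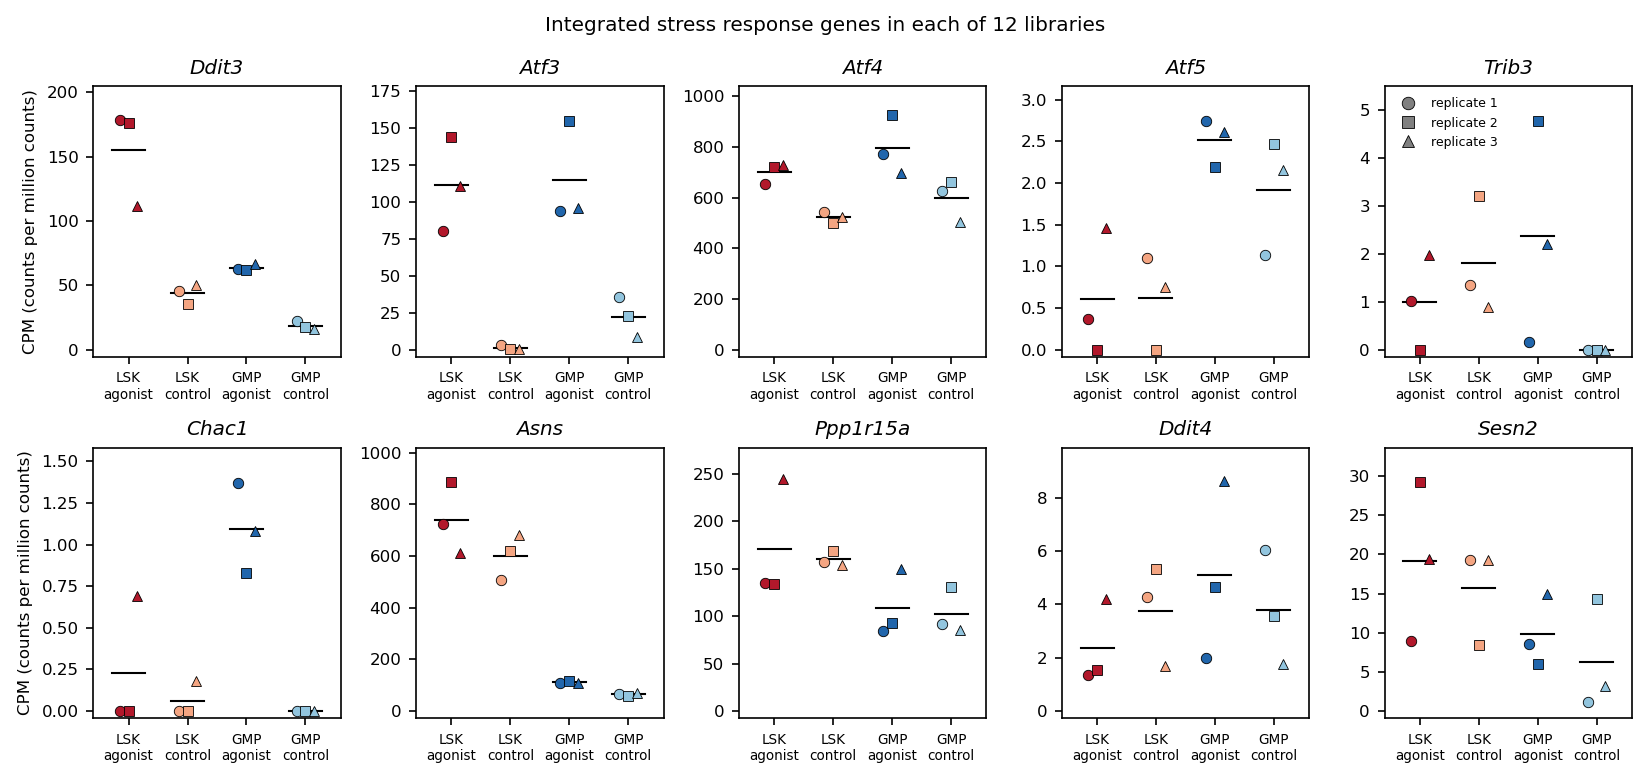
CPM (vertical axis, linear, a scale of its own per gene) of the 10 integrated stress response genes in each of 12 libraries, with marker shapes for replicate 1, 2 and 3 and a black bar for the group mean. Ddit3 is the panel in which the 4 groups keep apart, with treated LSK-labelled cells at 112 to 178 CPM on top and control GMP at 16.2 to 22.1 CPM at the bottom.

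Ddit3 encodes CHOP, a transcription factor of the C/EBP family that is induced late in the response and is known for promoting cell death and differentiation changes. In LSK-labelled cells it had 178, 176 and 112 CPM in the treated libraries, against 45.7, 35.5 and 50.3 CPM in the control ones. In GMP it had 62.6, 62.0 and 66.2 CPM in treated libraries and 22.1, 17.9 and 16.2 CPM in controls. Treated and control libraries did not overlap in either cell type, and treated replicate 3 was the lowest of the treated LSK-labelled libraries.

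On average Ddit3 stood at 155 ± 37.6 CPM in treated and 43.8 ± 7.58 CPM in control LSK-labelled cells (SD, n = 3 each). This was a 3.94-fold rise (95% interval 2.53 to 6.15), a log2 change of 1.98 ± 0.28 (SE) with an edgeR adjusted p of 0.0323. Among 13922 genes tested in LSK-labelled cells 47 passed, or 0.338%, all of them higher, and Ddit3 ranked 39th by p. In GMP the means were 63.6 ± 2.23 CPM in treated and 18.7 ± 3.02 CPM in control cells (SD, n = 3 each). The rise was 3.55-fold (95% interval 2.53 to 4.996), a log2 change of 1.83 ± 0.22 with an edgeR adjusted p of 0.00742. Of 15027 genes tested in GMP 0.426% passed in either direction, 0.386% as higher and 0.0399% as lower.

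In the authors' deposited table Ddit3 had an adjusted p of 1.01e-08 in LSK and 5.25e-14 in GMP. Neither call held in every fit with 1 library left out. When each library was left out in turn, Ddit3 passed in 1 of 6 fits in LSK-labelled cells, the one without treated replicate 3, with edgeR adjusted p between 0.0220 and 0.173. That library also had the highest sums of GMP and of mature neutrophil and monocyte markers among the LSK-labelled libraries, given with the other markers further on. In GMP it passed in 3 of 6 fits, each with all treated libraries kept, and the edgeR adjusted p ranged from 0.0161 to 0.0798. The log2 change itself stayed between 1.85 and 2.20 in LSK-labelled cells and between 1.78 and 2.01 in GMP.

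No difference between the cell types was detected in the change of Ddit3. The difference of the log2 changes, GMP minus LSK-labelled, was -0.11 with a 95% interval from -0.85 to 0.63 and an edgeR adjusted p of 0.944. The interval takes in a rise in GMP of 0.556 to 1.55 times that in LSK-labelled cells. The level did differ by cell type: Ddit3 was lower in GMP than in LSK-labelled cells both after the agonist (log2 difference -1.34 ± 0.24, edgeR adjusted p 0.00480) and in controls (-1.24 ± 0.24, 0.00698). In order of level, treated LSK-labelled cells stood above treated GMP, these above control LSK-labelled cells, and these above control GMP, with no overlap between any neighbours.

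Ddit3 lies at chr10:127290774-127296288 on the plus strand and shares 68 of its 1713 exon bases with Mars, the methionyl-tRNA synthetase gene on the opposite strand. A second protein-coding entry named Ddit3 in the gene annotation lies on the same strand and shares 105 of these bases. That entry is not among the genes listed for either cell type, and its part in the counts was not tested. The sources used here do not say whether the authors counted by strand. In LSK-labelled cells Mars had 109, 149 and 153 CPM in treated and 146, 191 and 184 CPM in control libraries, groups that overlapped. In GMP Mars had 108, 113 and 178 CPM in treated and 67.5, 109 and 84.4 CPM in control libraries, which overlapped too.

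Atf3 encodes a transcription factor of the ATF/CREB family that is induced early by many stresses and often represses inflammatory genes. In LSK-labelled cells it had 80.1, 144 and 110.3 CPM in treated libraries, against 3.40, 0.106 and 0.598 CPM in controls, which in counts is 2822, 4913 and 4317 against 111, 5 and 20. The control libraries thus spread over a wide range near the bottom of the scale. The fitted rise was 94.9-fold with a wide 95% interval of 18.4 to 489.7, and with an edgeR adjusted p of 0.0528 it did not pass. The log2 value was 6.57 and ranged from 6.01 to 8.48 when each library was left out, with the highest value without control replicate 1, the control library with the most counts.

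In GMP Atf3 had 93.7, 154 and 95.4 CPM in treated libraries and 35.2, 22.6 and 8.45 CPM in controls. Its level was 5.46-fold higher (95% interval 2.68 to 11.1), a log2 difference of 2.45 ± 0.46 with an edgeR adjusted p of 0.0676. Atf3 passed under several other settings: in LSK-labelled cells with DESeq2, with edgeR's likelihood-ratio test, with either other filter on low counts and in the joint fit of 12 libraries, and in GMP with DESeq2, limma-voom, the likelihood-ratio test and either other filter. In the authors' deposited table the adjusted p of Atf3 was 2.55e-10 in LSK and 1.06e-05 in GMP, where 5.05% and 2.69% of all genes with an adjusted p passed.

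The level of Atf3 was higher in GMP in controls, and no difference between the cell types was detected after the agonist. Treated GMP and treated LSK-labelled cells averaged 114 ± 34.5 and 111 ± 31.9 CPM (SD, n = 3 each), and the log2 difference was -0.00 with a 95% interval from -1.60 to 1.59. Control GMP and control LSK-labelled cells averaged 22.1 ± 13.4 and 1.37 ± 1.78 CPM (SD, n = 3 each), a log2 difference of 4.09 ± 0.86 that passed (edgeR adjusted p 0.00952) and was 6.01 without control LSK-labelled replicate 1. The agonist effect was smaller in GMP by 4.09 ± 1.11 on the log2 scale, a difference that did not pass (edgeR adjusted p 0.374, unadjusted p 0.00287) and was -6.01 without the same library.

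Atf4 encodes the master factor of the pathway and had the highest level per exon length of all 10 genes in all 4 groups. It had 653, 719 and 728 CPM in treated and 543, 499 and 524 CPM in control LSK-labelled libraries. In GMP it had 770.4, 924 and 697 CPM in treated and 625, 662 and 503 CPM in control libraries. Every treated library lay above every control one in both cell types, by a modest margin. The log2 difference was 0.57 ± 0.16 in LSK-labelled cells and 0.49 ± 0.18 in GMP, and neither passed, with edgeR adjusted p of 0.288 in LSK-labelled cells and 0.430 in GMP. DESeq2 called it in LSK-labelled cells at an adjusted p of 0.0146, within a range of 0.0146 to 0.707 over 14 alternative settings. In the authors' deposited table the adjusted p of Atf4 was 0.000176 in LSK, below the threshold, and 0.214 in GMP.

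Atf5, a relative of Atf4 that is also controlled by upstream open reading frames, was scarce. It had 0.369, 0 and 1.46 CPM in treated and 1.10, 0 and 0.747 CPM in control LSK-labelled libraries, and 2.74, 2.19 and 2.61 CPM in treated and 1.14, 2.47 and 2.16 CPM in control GMP libraries. Each of these values rests on at most 101 counts, and the groups overlapped in both cell types. Atf5 shares 82 of 1993 exon bases with Nup62 on the opposite strand, a gene with 6308 to 34207 counts per library, so even these few counts are uncertain.

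Levels were compared between genes per exon length. In RPKM, which are CPM divided by the exon length in kilobases, Atf4 averaged 297 in treated and 221 in control LSK-labelled cells. Asns came next there, with 271 RPKM in treated and 220.04 RPKM in control cells. In GMP Atf4 averaged 338 RPKM in treated and 253 RPKM in control cells, followed after the agonist by Atf3 at 53.1 RPKM and in controls by Ppp1r15a at 35.0 RPKM. Trib3, Chac1, Atf5, Ddit4 and Sesn2 averaged at most 5.52 RPKM in any group.

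Asns makes asparagine and is a classic target of ATF4. In GMP it had 109, 118 and 111 CPM in treated libraries, against 64.6, 59.5 and 71.1 CPM in controls. The difference was 1.81-fold (95% interval 1.36 to 2.40), a log2 value of 0.85 ± 0.18, with narrow spread in both groups, and it did not pass (edgeR adjusted p 0.121). Asns passed there in 3 of 14 alternative settings, over which the adjusted p ranged from 0.00354 with DESeq2 to 0.553. In LSK-labelled cells it had 723, 886 and 611 CPM in treated and 506, 618 and 681 CPM in control libraries, which overlapped (log2 difference 0.44 ± 0.23, edgeR adjusted p 0.505).

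The level of Asns also differed between the cell types. In GMP it was lower than in LSK-labelled cells by 2.77 ± 0.22 on the log2 scale after the agonist (edgeR adjusted p 1.40e-05) and by 3.23 ± 0.22 in controls (edgeR adjusted p 6.25e-06), where GMP had 0.107 times the LSK-labelled level. Both differences passed in all 12 fits that left out 1 library.

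Chac1 degrades glutathione and Trib3 is a pseudokinase that restrains ATF4 and CHOP; both are low in resting cells and sensitive to the pathway. In GMP Chac1 had 42, 30 and 42 counts in treated libraries, or 1.37, 0.831 and 1.08 CPM, and 0 counts in all control libraries. Against a floor of 3 counts over the control group this is at least 36.3-fold higher. The quasi-likelihood test gave an adjusted p of 0.160, and 13 alternative settings, 2 of which called it, gave 0.000386 to 0.681. In LSK-labelled cells Chac1 was too scarce to test, with counts in 1 library of each group, 27 in the treated and 6 in the control one.

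Trib3 had 5, 172 and 85 counts in treated GMP libraries, or 0.163, 4.76 and 2.19 CPM, and 0 counts in all 3 control libraries. That is at least 83.5-fold higher against the same floor, and the libraries were uneven: without treated replicate 2, which held 172 of the 262 counts, the bound was at least 43.6-fold. The filter on low counts removed Trib3 in GMP, and with no filter it passed (edgeR adjusted p 0.00134), the only call in 6 alternative settings that tested it, over which the adjusted p reached 0.351. In the authors' deposited table the adjusted p in GMP was 0.000109 for Trib3, 0.00108 for Chac1 and 0.00103 for Asns. In LSK-labelled cells Trib3 had 1.02, 0 and 1.97 CPM in treated and 1.35, 3.20 and 0.897 CPM in control libraries, which overlapped (edgeR adjusted p 0.895).

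Between control groups Trib3 was lower in GMP, at 0 counts, than in LSK-labelled cells, which had 225 counts and were at least 66.8-fold higher. Control LSK-labelled replicate 2 held 151 of those counts, and without it the bound was at least 37.7-fold. The difference in Trib3 passed (edgeR adjusted p 0.0365) in the full fit and in 4 of 12 fits that left out 1 library. No difference between the cell types in the agonist effect on Trib3 was called (edgeR adjusted p 0.374, unadjusted p 0.00436), in a fit where control GMP stood at 0 counts, and over 19 alternative settings the adjusted p ranged from 0.0284 with DESeq2 to 0.705. Fitted folds against a group at 0 are no bounds and are not given.

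The 4 genes whose promoter windows hold TGATGNAA, printed above, were Atf3, Chac1, Asns and Trib3. In GMP all 4 were higher in every treated library than in every control one, as were Ddit3 and Atf4, whose windows do not hold the letters. In LSK-labelled cells 1 of the 4, Atf3, kept its libraries apart in this way, beside Ddit3 and Atf4. Among genes that passed the filter on low counts, 5 of 9 did so in GMP and 3 of 9 in LSK-labelled cells, against 6.29% of all tested genes in GMP and 7.13% in LSK-labelled cells, or 8.44% and 9.68% after TMM scaling. The tested genes leave out Trib3 in GMP and Chac1 in LSK-labelled cells, and Chac1 passed the GMP filter through its treated libraries alone, so nothing is read from the 5 of 9. Chac1 and Trib3 had 0 counts in all control GMP libraries, where any count in each treated library sets the groups apart. Nothing is therefore read from the 4 genes with the letters either.

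The remaining genes encode brakes on the response itself or on growth. Ppp1r15a, or GADD34, brings a phosphatase to eIF2 and ends the response; it had 135, 134 and 245 CPM in treated and 157, 168 and 154 CPM in control LSK-labelled libraries. In GMP it had 84.4, 92.8 and 149.9 CPM in treated and 92.3, 131 and 85.5 CPM in control libraries. Treated replicate 3 was the highest library in both cell types and the other treated libraries lay within or below the controls, so the log2 differences of 0.22 in LSK-labelled cells and 0.15 in GMP turned to -0.07 and -0.12 without it.

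Ddit4 (REDD1) and Sesn2 both restrain the growth kinase complex mTORC1. Ddit4 had 1.36, 1.55 and 4.19 CPM in treated and 4.29, 5.31 and 1.67 CPM in control LSK-labelled libraries, and 1.99, 4.65 and 8.62 CPM in treated and 6.04, 3.56 and 1.77 CPM in control GMP libraries. Sesn2 had 8.97, 29.2 and 19.4 CPM in treated and 19.3, 8.41 and 19.3 CPM in control LSK-labelled libraries. In GMP Sesn2 had 8.55, 6.01 and 14.9 CPM in treated and 1.23, 14.3 and 3.22 CPM in control libraries. Libraries of a group differed several-fold for both genes, treated and control libraries overlapped throughout, and edgeR adjusted p-values were 0.793 or more.

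Over the genes that passed the filter, the median log2 difference of the integrated stress response genes was 0.44 in LSK-labelled cells (9 genes) and 0.75 in GMP (9 genes), against 0.02 and -0.04 over all genes tested. The GMP median counts Chac1, which passed the filter there through its treated libraries alone, and leaves out Trib3. Nothing is therefore read from that median. As a test of the difference between cell types, 0 of the 10 genes passed, as did 0% of the 16857 genes tested by edgeR's quasi-likelihood test. At an unadjusted p below 0.05 that test had Trib3 on the higher and Atf3 on the lower side, where 6.19% and 3.94% of all genes stood. DESeq2 called 176 genes in all, Trib3 among them, and the likelihood-ratio test called 118, Trib3 and Atf3 among them.

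Between cell types 4 of the 10 genes passed in controls, Atf3 higher and Ddit3, Trib3 and Asns lower in GMP, and 2 passed after the agonist, Ddit3 and Asns, both lower in GMP. Among 16857 genes tested in controls 11.5% passed, 4.55% as higher and 6.98% as lower in GMP. After the agonist 9.42% passed, 4.57% as higher and 4.85% as lower in GMP. Within each condition Atf5 was higher in every GMP library than in every LSK-labelled one, at 2.19 to 2.74 against 0 to 1.46 CPM after the agonist and 1.14 to 2.47 against 0 to 1.10 CPM in controls, but did not pass. Such separation upward was seen for 20.0% of tested genes after the agonist and for 15.1% in controls, and downward in controls for 14.9%. Ppp1r15a was lower in every control GMP library than in every control LSK-labelled one and did not pass either (log2 difference -0.66 ± 0.26, edgeR adjusted p 0.134).

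The kinases that start the response did not pass after the agonist. Eif2ak1, the haem-regulated kinase HRI, had 37.7, 40.8 and 73.1 CPM in treated and 114, 127 and 100.3 CPM in control LSK-labelled libraries, a log2 difference of -1.04 ± 0.27 (edgeR adjusted p 0.270) that DESeq2 called. Eif2ak2, the interferon-inducible double-stranded RNA sensor PKR, had 21.4, 17.3 and 33.7 CPM in treated and 34.7, 46.8 and 18.9 CPM in control LSK-labelled libraries. In GMP it had 19.4, 23.4 and 36.0 CPM in treated and 15.4, 26.7 and 23.3 CPM in control libraries. Eif2ak3 (PERK, the sensor in the endoplasmic reticulum) and Eif2ak4 (GCN2, the amino acid sensor) differed by 0.17 or less on the log2 scale in both cell types. These 4 kinases were chosen for their role, with their values known.

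The list of eIF2 kinases, eIF2 and eIF2B subunits and phosphatase subunits held 16 genes, and 0 of the 16 tested passed after the agonist in either cell type by edgeR's quasi-likelihood test. At an unadjusted p below 0.05 there were 1 higher and 2 lower in LSK-labelled cells and 3 higher and 0 lower in GMP, where 5.82%, 5.98%, 4.30% and 4.84% of all genes did so. Eif2b1, a subunit of the exchange factor for eIF2, was nearest in GMP with 101, 76.4 and 94.8 CPM in treated and 61.4, 61.2 and 67.3 CPM in control libraries (edgeR adjusted p 0.361). DESeq2 called 1 gene of the list, Eif2ak1 in LSK-labelled cells, as lower.

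Genes for amino acid synthesis and transport that depend on ATF4 did not pass either. Of 19 tested, 14 had a log2 value above 0 in GMP and 10 in LSK-labelled cells, with medians of 0.33 and 0.02. The nearest was Psat1, of serine synthesis, with 304, 308 and 329 CPM in treated and 181, 205 and 187 CPM in control GMP libraries, a log2 difference of 0.78 ± 0.15 (edgeR adjusted p 0.0797) that passed with DESeq2. Phgdh, which makes the first step of serine synthesis, had 1539, 1729 and 1975 CPM in treated and 1296, 1516 and 961 CPM in control GMP libraries (edgeR adjusted p 0.359). In LSK-labelled cells Phgdh had 609, 554 and 865 CPM in treated and 951, 1031 and 940.4 CPM in control libraries. At an unadjusted p below 0.05 this list had 4 higher and 0 lower in GMP and 0 of either in LSK-labelled cells. Of all genes tested, 4.30% were higher and 4.84% lower in GMP, and 5.82% and 5.98% in LSK-labelled cells.

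A list of 13 protein-coding genes that act on transfer RNAs had known ATF4 targets among them. It held 12 synthetases, which charge transfer RNAs, and Xpot, an export receptor for transfer RNAs that charges none. Its medians lay on opposite sides of 0 in the 2 cell types. In GMP 12 of 13 had a log2 value above 0, all 12 of them synthetases, with a median of 0.40 over the list and 0.44 over the synthetases. Xpot was the gene below 0 there, at -0.11 with an edgeR adjusted p of 0.906. In LSK-labelled cells 3 of 13 lay above 0, all synthetases, with a median of -0.22 and a range of -0.70 to 0.12. Over all genes tested, 46.3% in GMP and 51.2% in LSK-labelled cells lay above 0. With scaling by library size alone the counts were 11 of 13 in GMP and 0 of 13 in LSK-labelled cells. By edgeR's quasi-likelihood test 0 of 13 passed in each, while at an unadjusted p below 0.05 there were 8 higher and 0 lower in GMP and 0 higher and 2 lower in LSK-labelled cells. At that threshold 4.30% of all genes were higher and 4.84% lower in GMP, and 5.82% and 5.98% in LSK-labelled cells. DESeq2 called 2 as higher in GMP, Lars and Nars, and 0 in LSK-labelled cells.

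Nars, for asparagine, had 414, 384 and 438 CPM in treated and 283, 285 and 283 CPM in control GMP libraries (log2 difference 0.60 ± 0.15, edgeR adjusted p 0.196). Its LSK-labelled libraries overlapped, at 306, 356 and 392 CPM in treated and 307, 388 and 379 CPM in control cells. Lars, for leucine, had 128, 147 and 128 CPM in treated and 89.4, 86.4 and 93.4 CPM in control GMP libraries (log2 difference 0.65 ± 0.17, edgeR adjusted p 0.231). The difference of the agonist effect, GMP minus LSK-labelled, was above 0 for 13 of 13 genes with a median of 0.65, against 50.3% and 0.01 over all genes. By the quasi-likelihood test 0 passed. At an unadjusted p below 0.05 there were 8, all higher, where 6.19% of all genes were higher, and DESeq2 called 0. Cars, for cysteine, came nearest with 1.31 ± 0.39 (edgeR adjusted p 0.374).

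**Figure D2:**
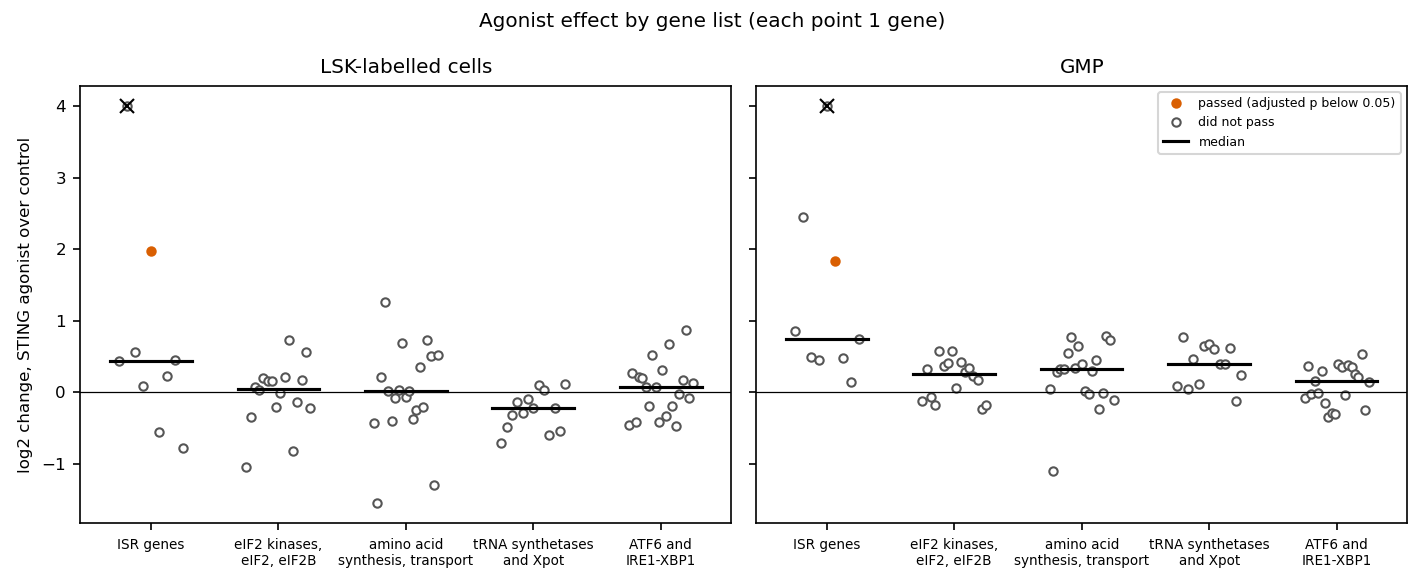
Log2 change after the STING agonist for each tested gene of 5 lists, in LSK-labelled cells (left) and GMP (right), where each point is 1 gene, a bar is the list median and filled orange marks genes that passed; a cross marks a gene past the limit of 4, Atf3 on the left and Chac1, at its bound, on the right. The list of synthetases and Xpot lies mostly below 0 on the left (median -0.22) and mostly above 0 on the right (median 0.40), and Ddit3 is the 1 filled point in each panel.

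The 2 other branches of the unfolded protein response, run by ATF6 and IRE1-XBP1, showed no call after the agonist. Of 20 genes 11 lay above 0 in each cell type, with medians of 0.07 in LSK-labelled cells and 0.15 in GMP, and 0 passed by the quasi-likelihood test or DESeq2. The chaperone gene Hspa5 (BiP) had 867, 878 and 1368 CPM in treated and 819, 854 and 1065 CPM in control LSK-labelled libraries. In GMP Hspa5 had 2235, 2335 and 2711 CPM in treated and 1895, 1966 and 1906 CPM in control libraries, a log2 difference of 0.40 ± 0.13 (edgeR adjusted p 0.378). At an unadjusted p below 0.05 the list had 2 higher and 1 lower in LSK-labelled cells and 3 higher and 0 lower in GMP. Of all genes tested, 5.82% were higher and 5.98% lower in LSK-labelled cells, and 4.30% and 4.84% in GMP.

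A list of 22 other ATF4 and CHOP targets had 19 tested genes, and 0 passed in either cell type by the quasi-likelihood test. Herpud1, of protein degradation at the endoplasmic reticulum, had 196, 182 and 282 CPM in treated and 91.6, 153 and 121 CPM in control GMP libraries (log2 difference 0.92 ± 0.23, edgeR adjusted p 0.205). DESeq2 called Herpud1 and Atg12, an autophagy gene, as higher in GMP and Vldlr, a lipoprotein receptor gene, as lower in LSK-labelled cells. At an unadjusted p below 0.05 there were 3 higher and 1 lower in LSK-labelled cells and 3 higher and 0 lower in GMP. Shares of all genes were 5.82% higher and 5.98% lower in LSK-labelled cells, and 4.30% and 4.84% in GMP.

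Lists for pathways that also raise some of these genes were counted alongside. Of p53 target genes 0 of 15 passed in either cell type; Pmaip1 (NOXA), which promotes cell death, had 97.8, 80.1 and 135 CPM in treated and 1.82, 15.7 and 14.7 CPM in control GMP libraries (edgeR adjusted p 0.0738). Of glucocorticoid-induced genes, a set that includes general stress genes, 1 of 9 passed in each cell type, the phosphatase gene Dusp1. Dusp1 had 403, 527 and 483 CPM in treated and 197, 137 and 93.5 CPM in control LSK-labelled libraries, a log2 rise of 1.88 ± 0.27 (edgeR adjusted p 0.0333). In GMP it had 289.8, 360.2 and 369 CPM in treated and 82.9, 115 and 77.3 CPM in control libraries, a rise of 1.96 ± 0.20 (edgeR adjusted p 0.00330). Of mTORC1 nutrient-sensing genes 0 of 20 passed in each cell type, and of ATF and CREB family factors outside the 10 genes 0 of 15.

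At an unadjusted p below 0.05 the p53 list had 3 higher and 0 lower in each cell type. The mTORC1 list had 0 higher and 5 lower in LSK-labelled cells and 2 higher and 0 lower in GMP, and the ATF and CREB list had 1 lower and 0 higher in each. Shares of all genes were 5.82% higher and 5.98% lower in LSK-labelled cells, and 4.30% and 4.84% in GMP. DESeq2 called Fas of the p53 list in LSK-labelled cells and Pmaip1 and Btg2 in GMP, all higher. It also called Tsc2 of the mTORC1 list in LSK-labelled cells and Creb3l2 of the ATF and CREB list in GMP, both lower.

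In the neighbouring pathways calls were made between control GMP and control LSK-labelled cells. Of the 12 synthetase genes 6 were lower in control GMP (Gars, Cars, Wars, Sars, Mars and Lars) and 0 were higher, and Xpot was lower as well. The median of the 13 was -0.79. Of all genes tested between controls, 6.98% passed as lower and 4.55% as higher in GMP. Gars, for glycine, had 133, 159 and 115 CPM in control GMP and 300.2, 289 and 346 CPM in control LSK-labelled libraries (log2 difference -1.22 ± 0.17, edgeR adjusted p 0.000926). Between treated GMP and treated LSK-labelled cells 0 of 13 passed by the quasi-likelihood test and the median was -0.11; at an unadjusted p below 0.05 there were 0 higher and 2 lower, where 12.5% and 11.5% of all genes stood, and DESeq2 called 1, Gars, as lower. This comparison of controls shares its libraries with the agonist comparisons above, so the values are not separate evidence.

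Of the 16 genes around eIF2, 4 were lower in control GMP (Eif2s3x, Eif2b1, Eif2b3 and Eif2s1) and 0 higher, with a median of -0.56, where 6.98% of all genes were lower. Eif2s3x, a subunit of eIF2, had 85.4, 113 and 75.8 CPM in control GMP and 185, 307 and 173 CPM in control LSK-labelled libraries (log2 difference -1.30 ± 0.26, edgeR adjusted p 0.00683). Among genes of amino acid supply, Slc43a1, an amino acid transporter, was lower in GMP by a log2 difference of -1.69 ± 0.19 after the agonist and -1.71 ± 0.19 in controls. Aldh18a1, of proline synthesis, was lower by -1.07 ± 0.20 after the agonist and -1.60 ± 0.20 in controls, and all 4 differences passed. Phgdh was higher in treated GMP than in treated LSK-labelled cells (log2 difference 1.34 ± 0.20, edgeR adjusted p 0.00115).

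The branches of ATF6 and IRE1-XBP1 went the other way. Of 20 genes 14 were higher in treated GMP than in treated LSK-labelled cells and 17 in control GMP than in control LSK-labelled cells, with medians of 1.33 and 1.23. Of all genes tested, 4.57% passed as higher in GMP after the agonist and 4.55% in controls. Ern1, which encodes IRE1 itself, was 1.94 ± 0.19 higher on the log2 scale after the agonist (edgeR adjusted p 6.71e-05) and 2.24 ± 0.19 higher in controls (2.68e-05). Calr, a calcium-binding chaperone gene, had 4464, 4835 and 4719 CPM in treated GMP and 1001, 829 and 1896 CPM in treated LSK-labelled libraries. In controls Calr had 3789, 3849 and 3678 CPM in GMP and 1286, 894 and 1179 CPM in LSK-labelled libraries. Erythroid marker sums, given above, were far higher in every LSK-labelled library than in every GMP library, and their part in these differences was not tested.

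**Figure D3:**
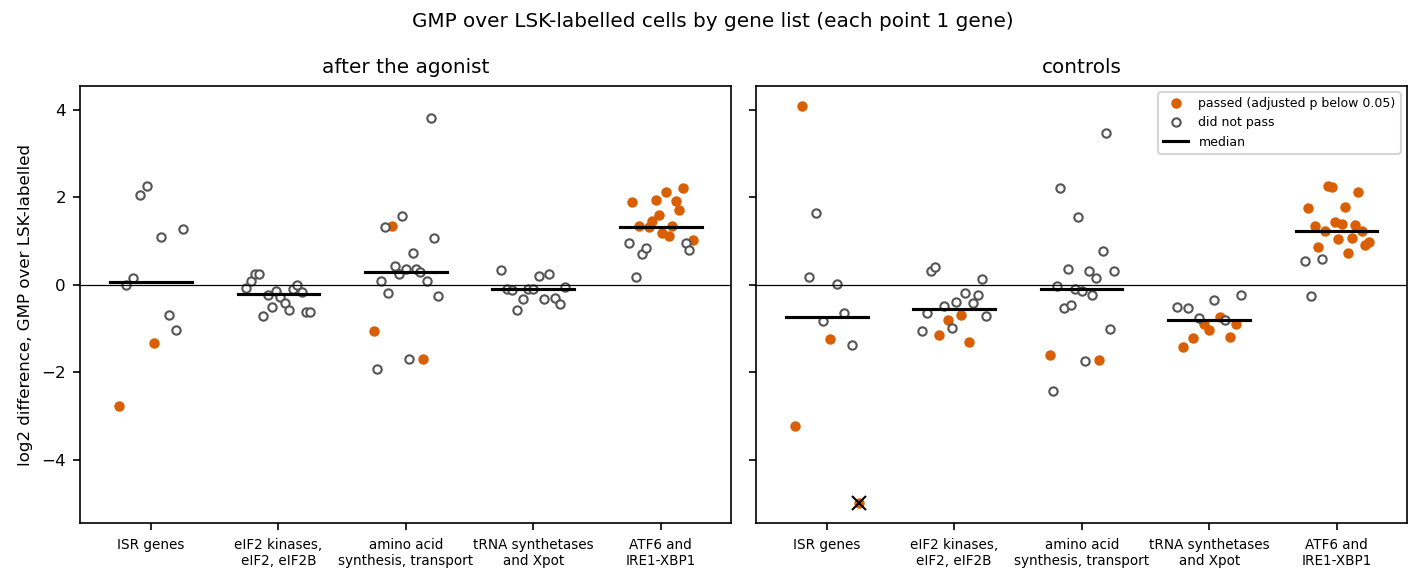
Log2 difference, GMP over LSK-labelled cells, for each tested gene of the same 5 lists after the STING agonist (left) and in controls (right), where each point is 1 gene, a bar is the list median and filled orange marks genes that passed; the cross marks Trib3, whose bound lies past the limit of -5, and Chac1 in controls is drawn at its bound. The ATF6 and IRE1-XBP1 list stands above 0 in both panels (medians 1.33 and 1.23), and the list of synthetases and Xpot sits below 0 in controls (median -0.79) and near 0 after the agonist (median -0.11).

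Markers of other cells moved with the agonist in part. The sum of 10 megakaryocyte and platelet markers was 18.7 to 53.2 CPM in treated and 125 to 325 CPM in control LSK-labelled libraries, with Ppbp and Treml1 at 0 in all treated ones. In GMP it was 24.0 to 41.2 CPM in treated and 36.9 to 120.1 CPM in control libraries, sums that overlapped and of which Itga2b made up the largest part in treated cells. All 8 of these markers tested in GMP had a log2 value below 0, as did all 8 tested in LSK-labelled cells. The platelet factor gene Pf4 passed in GMP as lower, with 0.457, 0.637 and 0.594 CPM in treated and 28.5, 21.7 and 4.49 CPM in control libraries (edgeR adjusted p 0.0163). DESeq2 called Pf4, Gp1bb, Treml1 and Cavin2 as lower in GMP and Pf4, Itga2b and Treml1 as lower in LSK-labelled cells. The sum of 10 LSK markers was 188 to 246 CPM in treated and 338 to 603 CPM in control LSK-labelled libraries. In GMP the same sum was 256 to 284 CPM in treated and 271 to 355 CPM in control libraries. Every treated LSK-labelled library thus lay below every GMP library, and the control groups of the cell types overlapped. Sums of erythroid and of GMP markers overlapped between treated and control libraries in both cell types, while single markers did shift in GMP. At an unadjusted p below 0.05 (edgeR's quasi-likelihood test), 4 of 8 erythroid markers tested were lower there and 0 higher. So were 6 of 9 mature neutrophil and monocyte markers, where 4.84% of all genes were lower. By that test 1 of 3 lymphoid markers passed as lower in GMP, and DESeq2 called Ighm as lower. Treated LSK-labelled replicate 3 stood apart. Its GMP markers summed to 11088 CPM, against 3663 and 1360 CPM in the other treated libraries, and Mpo alone had 5482 CPM, against 1242 and 513 CPM. The sum of mature neutrophil and monocyte markers was 265, 75.0 and 996 CPM in treated and 243, 99.99 and 287 CPM in control LSK-labelled libraries, and the neutrophil granule gene Ngp had 2.10, 2.90 and 214 CPM in treated ones. The same library had the lowest Ddit3 of the treated LSK-labelled group. The part of these shifts in the change of Ddit3, or in the values of the other genes, was not tested.

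Gene patterns over the 12 libraries were set against that of Ddit3 by Pearson correlation of log2 CPM among 16857 genes. With Gm-, Rik-, clone- and pseudogene-named genes skipped, the most alike were Tgtp2 (0.981), Tgtp1 (0.976), Irf7 (0.948), Rtp4 (0.947) and Rnf213 (0.944). Tgtp1 and Tgtp2 are close copies that can share reads. Of the other integrated stress response genes the closest was Asns at 0.712, at rank 683 where Ddit3 itself is 1, and Atf4 stood at 0.606 and Atf3 at 0.475. That rank counts all 16857 genes, the skipped ones included. These correlations describe 12 points that share 4 groups.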

How the data were processed

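Libraries were amplified by Smart-Seq2, per the labels' protocols; the sources used here do not give aligner, counter or strand setting. The authors deposited per-library read counts as whole numbers, by Ensembl gene, per the file headers, in 1 table for LSK (29736 genes) and 1 for GMP (31042), with 24982 genes in both and 1 blank line in each, which was left out. The same tables carry a log2 fold change with its p-value and adjusted p, all as the authors deposited them. The submitters' processing notes name mm9, but positions were those of GRCm38 in the gene annotation GENCODE M21 for 94.6% (LSK) and 94.8% (GMP) of matched identifiers, and coordinates are therefore given on GRCm38.

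Counts were tested with edgeR 4.0.16 in R 4.3.3 (quasi-likelihood test, TMM, filterByExpr, Benjamini-Hochberg over all tested genes, threshold 0.05), separately in LSK and GMP for the agonist. A joint fit of 12 libraries on the shared genes gave the difference of effects and GMP over LSK. Variation between libraries, as edgeR's common coefficient of variation, was 74.0% for LSK and 54.0% for GMP, and it may be technical. CPM are counts per 1000000 counts of a library, and RPKM divide these by union exon length in GENCODE M21. In a group with 0 counts, folds use a floor of 3 counts over the group; floors cover counting error only. DESeq2 1.42.0, limma 3.58.1 (voom), edgeR's likelihood-ratio test, other filters (none, or at least 1 CPM in 3 libraries), scaling by library size alone, a replicate block, and leaving out each library were the alternatives.

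The 10 genes, the lists and the motifs were chosen with earlier results of these data known. Of each other list, called genes were named and, where fewer than 2 were called, those of smallest p up to 2, of which most that did not pass are left out. For Ddit3 the 5 most correlated genes were named, with Gm-, Rik-, clone- and pseudogene-named genes skipped.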

Additional observations from a re-analysis of the deposited data

How the results depend on the processing

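The count of integrated stress response genes that passed after the agonist in LSK-labelled cells was 1. It was 3 with DESeq2 (Ddit3, Atf3 and Atf4), 2 with no filter, with a filter of at least 1 CPM in 3 libraries, with the likelihood-ratio test and in the joint fit of 12 libraries (Ddit3 and Atf3 in each), and 0 with the replicate block. Leaving out each library gave 0 to 1, and the gene that passed without control replicate 1, and also without control replicate 2, was Atf3. In GMP the count of 1 became 4 with DESeq2 and with the likelihood-ratio test (Ddit3, Atf3, Chac1 and Asns in each). It was also 4 with no filter, with Trib3 in place of Chac1. It was 2 with the CPM filter and with voom (Ddit3 and Atf3) and 0 with the replicate block. Leaving out each library gave 0 to 2. For these alternatives the share of all genes that passed after the agonist is not given, so nothing is read from the rise in either count. The 0 genes that differed in effect between cell types became 1 with DESeq2 (Trib3) and 2 with the likelihood-ratio test. The counts of 4 between GMP and LSK-labelled cells in controls and 2 after the agonist stayed within 1.5 times under all of these. The causes were not tested.

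The replicate numbers were not taken to pair the samples, since no set had every correlation over 0.1: correlations of same-numbered deviations were 0.064, 0.151 and 0.025 in LSK-labelled cells and 0.028, -0.022 and 0.023 in GMP between treated and control libraries, and between GMP and LSK-labelled cells 0.167, 0.083 and 0.090 after the agonist and -0.0046, 0.026 and 0.102 in controls. After the agonist each library of 1 cell type correlated best with the same number of the other, a hint from the data and not from the design; in the other sets this did not hold throughout. With the block the counts between cell types were 3 in controls and 2 after the agonist. With the block, Ddit3 had adjusted p of 0.251 in LSK-labelled cells and 0.0508 in GMP, and the log2 change stayed at 1.95 and 1.84.

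Signs turned for genes that did not pass. Atf5 in LSK-labelled cells went to -0.014 with library-size scaling and -0.16 with the block; Ddit4 in controls, GMP over LSK-labelled, to -0.086 with voom; and Atf3 after the agonist, GMP over LSK-labelled, to 0.039 with library-size scaling, 0.056 with DESeq2, 0.044 with no filter, 0.023 with the CPM filter and 0.0042 with voom. Over fits without 1 library, log2 values ranged in LSK-labelled cells from -1.53 to 0.74 for Atf5, -0.065 to 0.35 for Ppp1r15a and -0.049 to 0.78 for Sesn2, and in GMP from -0.12 to 0.35 for Ppp1r15a and -0.10 to 1.05 for Ddit4. For the difference of effects they ranged from -0.33 to 0.057 for Ddit3, -0.17 to 0.070 for Atf4, -0.27 to 2.05 for Atf5, -0.30 to 0.26 for Ppp1r15a and -0.14 to 1.73 for Sesn2. For GMP over LSK-labelled cells they ranged from -0.53 to 0.41 for Ddit4 in controls and from -0.26 to 0.28 for Atf3 after the agonist. Scaling by library size alone moved the median of all genes by -0.14 in LSK-labelled cells and -0.07 in GMP.

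With 3 libraries a group and a spread of 74.0% in LSK-labelled cells, genes with few counts gave wide intervals. That of Atf5 ran from -4.60 to 4.78 on the log2 scale, which excludes neither a large rise nor a large fall.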
